A study of Mus musculus with 4 samples.

Results

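Neuronal pentraxins and C1q-like synapse organisers were described in hippocampal RNA from male DBA/2J mice, an inbred strain, with and without chronic fluoxetine. The set holds 8 genes: the pentraxins Nptx1, Nptx2 and Nptxr, the C1q-like genes C1ql2 and C1ql3, and the cerebellins Cbln1, Cbln2 and Cbln4. Its members were all probesets that the platform annotation assigns to 1 of these symbols and no other. This gave 13 of the 45101 probesets on the array, for 7 of the 8 genes. Nptxr had 0 such probesets, because its 3 probesets are assigned jointly to Nptxr and Npcd. They are given separately and enter no count of members. The genes were chosen by their reported intensities in this fluoxetine comparison, in which Nptx2 and C1ql2 already stood out, so their group differences are given as values with standard errors and no p-value, and a count of calls among them is a description that supports nothing.

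Control mice drank untreated water, a dose of 0, and treated mice drank water dosed to give 18 mg/kg of fluoxetine per day, for 21 days. Fluoxetine is a selective serotonin reuptake inhibitor used against depression. Both groups were labelled as 8 to 10 weeks old. Hippocampal RNA of both sides was pooled from 6 mice at a time, 12 mice per group, and the resulting 2 control and 2 fluoxetine pools were each run on their own Affymetrix Mouse Genome array. The series text also describes a tail suspension test and does not say whether the pooled mice took part. A pool of whole hippocampi gives no value for a single mouse, hippocampal field or cell type, and fewer cells of a type cannot be told apart from less RNA per cell.

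Neuronal pentraxins gather AMPA-type glutamate receptors at excitatory synapses. NPTX1 and NPTX2 are secreted, NPTXR is anchored in the membrane, and they can assemble into mixed complexes. The C1q-like proteins and the cerebellins carry a globular domain related to complement C1q and are released by neurons into the synaptic cleft. They bridge neurexins on the axon to receptors on the target cell, such as delta-type or kainate-type glutamate receptors and the adhesion receptor ADGRB3.

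The values are GCRMA intensities on a linear scale, with a median over all probesets of 22.6 to 23.3 in the 4 arrays. The submitters took 100 as the lowest intensity that counts as expression, and the test here took the 16938 probesets that were at 100 or more on 2 or more arrays. Groups were compared with limma, a linear model that pools spread over probesets, with Benjamini-Hochberg adjustment, and it called 1.72% of the tested probesets at an adjusted p under 0.05. With any 1 array left out, it called 0 (2657 to 3515 at an unadjusted p under 0.05), so every call given here needs all 4 arrays. Pairs of values are in the order pool 1, pool 2. All 18 probesets of the hybridisation spike-ins, control transcripts added to each sample, were higher in both fluoxetine arrays, by a median log2 of 0.36. Several of these probesets share a transcript and are not separate evidence. The part of the spike-in shift in the differences given here was not tested. As a background for the list counts, 22.05% of the 9030 genes with a tested probeset had an unadjusted limma p under 0.05 at their brightest one. Markers of hippocampal neurons were well measured. Of 14 CA pyramidal cell markers 11 were tested and 0 passed limma (1 at an unadjusted p under 0.05), the largest differences being those of Fibcd1 (log2 -0.82), Mpped1 (-0.24) and Wfs1 (0.22). Of 14 interneuron markers 13 were tested and only neuropeptide Y, Npy, rose (log2 2.22 ± 0.10, limma adjusted p = 0.0172), with the next largest differences at Dlx1 (-0.42) and Calb2 (0.34). Of 10 astrocyte markers 3 rose, Gfap (log2 2.78), Vim (1.78) and Aqp4 (1.07), and 0 of 9 tested oligodendrocyte markers passed limma (0 at an unadjusted p under 0.05), with Mog at -0.16, Cldn11 at 0.16 and Mobp at -0.12. Choroid plexus RNA split the arrays by pool number. Its product transthyretin (Ttr) read 37856 in the first control pool and 51101 in the first fluoxetine pool, but 2002 and 4429 in the second pools, and Kl, which encodes klotho, was higher in both first pools too. Both were tested and neither passed (limma adjusted p = 0.824 and 0.833).

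Nptx2, also called Narp, encodes a secreted pentraxin and is a classical activity-induced gene. At probeset 1420720_at its intensity was 61.7 in control pool 1, 49.2 in control pool 2, 349 in fluoxetine pool 1 and 397 in fluoxetine pool 2. Both control pools lay under the minimum of 100, both fluoxetine pools lay well above it, and the groups did not overlap. The lowest fluoxetine value stood 2.50 log2 units above the highest control value, against a gap of 0.32 between the control pools and 0.19 between the fluoxetine pools. The measured difference was 2.76 ± 0.14 on the log2 scale (SE, n = 2 pools per group). Since both controls were below the minimum, only a bound on the fold can be given. Set against 100, Nptx2 was at least 3.72-fold higher (geometric means 55.1 and 372). The measured difference lay between 2.59 and 2.92 with any 1 array left out, and it was 1.90 with values floored at 100. The probeset passed the filter only through the fluoxetine arrays.

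The other Nptx2 probeset gave no usable level. 1449960_at was at 4.53, 4.54 and 4.53 in control pool 1, control pool 2 and fluoxetine pool 1, and at 14.0 in fluoxetine pool 2. Values this far under 100 sit at the floor of the normalization, and the probeset was not tested. The statement on Nptx2 therefore rests on 1 probeset of 2.

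Nptx1 encodes the other secreted neuronal pentraxin. Probeset 1422130_at read 1827 and 1575 in the controls, then 1840 and 1817 after fluoxetine. Probeset 1434877_at read 7552 and 5992 in the controls, then 6969 and 6847 after fluoxetine. At both probesets control pool 2 was the lowest of the 4 arrays, and the groups overlapped. The differences were 0.11 ± 0.09 and 0.04 ± 0.13 on the log2 scale, under the gaps of 0.21 and 0.33 between the control pools. Without control pool 2 they were 0.00 and -0.13, so the first was level there and the second changed sign.

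The membrane pentraxin gene Nptxr could not be read alone. The reference gene table places it inside the span of Npcd, which that table also calls Cbx6-Nptxr, and the array cannot say which of them a joint probeset detects. The brightest joint probeset, 1434270_at, read 5117 and 4824 in the controls, then 6129 and 6421 after fluoxetine. Both fluoxetine pools were higher than both controls there, by 0.34 ± 0.07 on the log2 scale. The other joint probesets, 1421181_at and 1450147_at, were at 114 to 132 in the controls and 140 to 161 in the fluoxetine pools. They were higher too, by 0.28 ± 0.09 and 0.33 ± 0.09. The groups did not overlap at any of the 3, as at 56.0% of all tested probesets.

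**Figure D1:**
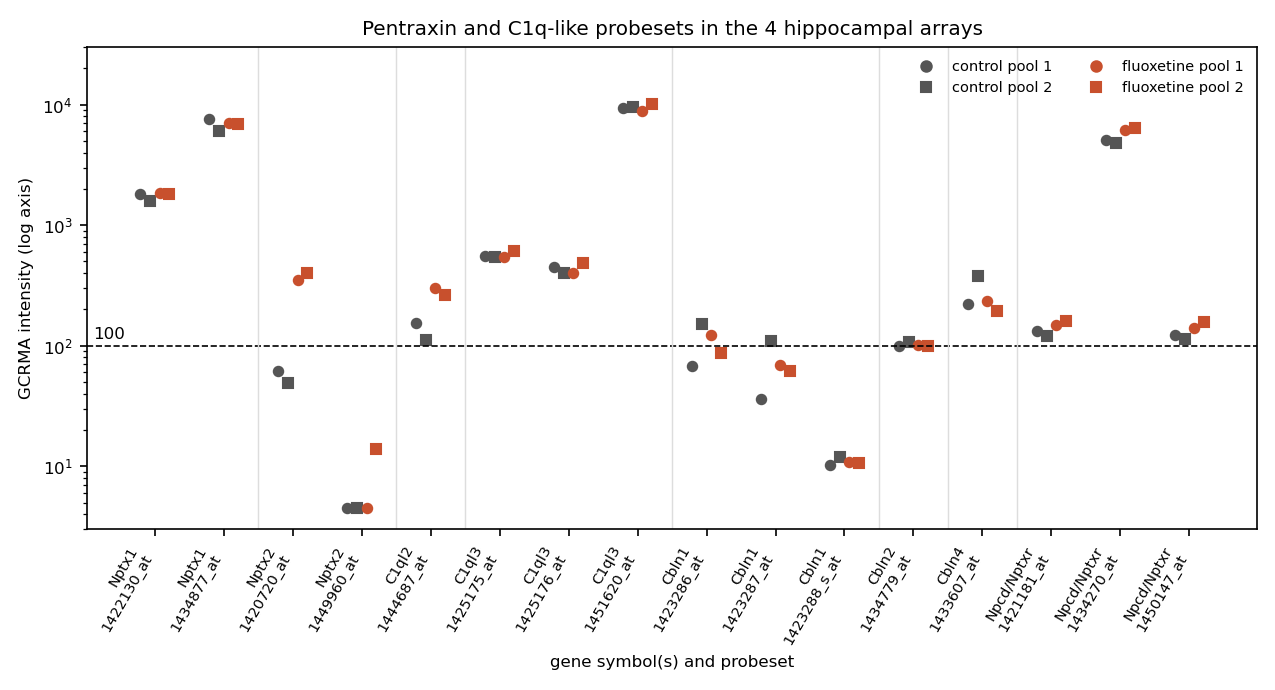
GCRMA intensity (log axis) of the 13 member probesets and the 3 probesets assigned to both Npcd and Nptxr, 1 point per array, with grey for control and orange for fluoxetine pools and circles and squares for pools 1 and 2. The dashed line marks the submitters' minimum of 100. Nptx2 1420720_at crosses it between groups (49.2 to 61.7 against 349 to 397), while the 3 C1ql3 probesets stay level.

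C1ql2, a C1q-like gene expressed strongly by dentate granule cells and secreted from their mossy fibres, was also brighter after fluoxetine, and its relative C1ql3 was level. The extraction from the RefSeq promoter table left out a chromosome, so a member missing here may still be in that table. It gave 3 of the 8 genes, C1ql2, C1ql3 and Cbln4. Their 250 bases upstream of the annotated start are shown because C1ql2 and C1ql3 encode related proteins and differed in these data, and Cbln4 was the member with the largest decrease. All are from GRCm38.p6, written 5′ to 3′ on the gene's strand, with capitals for E-box letters (CANNTG) and for the CRE half-site TGACG, either strand.
C1ql2 (chr1:120340332-120340581, plus strand): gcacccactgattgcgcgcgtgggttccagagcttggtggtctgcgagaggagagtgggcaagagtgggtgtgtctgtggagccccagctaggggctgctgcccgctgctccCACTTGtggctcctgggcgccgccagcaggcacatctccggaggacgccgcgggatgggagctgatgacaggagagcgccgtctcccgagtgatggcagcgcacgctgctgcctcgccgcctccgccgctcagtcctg
C1ql3 (chr2:13010865-13011114, minus strand): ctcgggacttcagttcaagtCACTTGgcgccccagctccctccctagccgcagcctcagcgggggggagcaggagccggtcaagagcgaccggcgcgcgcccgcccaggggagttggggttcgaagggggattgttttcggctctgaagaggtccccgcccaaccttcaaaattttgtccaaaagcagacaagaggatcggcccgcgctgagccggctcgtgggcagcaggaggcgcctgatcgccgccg
Cbln4 (chr2:172043467-172043716, minus strand): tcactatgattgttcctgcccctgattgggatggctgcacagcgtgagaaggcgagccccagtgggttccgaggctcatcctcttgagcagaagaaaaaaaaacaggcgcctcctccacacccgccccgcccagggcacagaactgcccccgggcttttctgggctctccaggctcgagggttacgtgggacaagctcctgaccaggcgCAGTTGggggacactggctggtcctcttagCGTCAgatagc

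The C1ql2 and C1ql3 windows were alike in composition. Bases G and C made up 68.8% of the C1ql2 window and 66.4% of the C1ql3 window, against a median of 52.4% over the 32851 upstream windows in the table, and the dinucleotide CG occurred 20 and 23 times against a median of 6. Each of the 3 windows held 1 E-box, a motif that 66.2% of all windows hold. None of the 3 held, on either strand, the full CRE (TGACGTCA, in 1.55% of windows) or the EGR motif (GCGTGGGCG, in 0.536%). The TATA box letters TATAAA, which 12.4% of all windows hold on at least 1 strand, were likewise found in none of these 3 windows. The CRE half-site, present in 17.8% of windows and contained in the full CRE, occurred once in Cbln4 only. The AP-1 letters TGANTCA, held by 6.75% of windows, were in none of the 3. These are matches of letters and not measured binding sites.

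C1ql2 has a single probeset, 1444687_at. It was at 153 in control pool 1, 112 in control pool 2, 303 in fluoxetine pool 1 and 263 in fluoxetine pool 2. All 4 arrays were above 100 and the groups did not overlap, with 0.78 log2 units between the highest control and the lowest fluoxetine pool. The difference was 1.11 ± 0.17 on the log2 scale, or 2.16-fold between geometric means of 131 and 282, and it ranked 80 of 16938 among tested increases. Control pool 2 was the lowest array, and without it the difference was 0.88, the smallest value with 1 array left out.

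Other granule cell genes did not share a direction. Of 14 mature granule cell markers 11 were tested, of which 1 rose and 1 fell. At an unadjusted limma p under 0.05 were 7, beside 22.05% of all genes. The 11 had 5 above 0 and 6 below. Their median log2 difference was -0.15, and 0.11 without control pool 1, so it had no settled direction. Rasl10a, a Ras-like GTPase gene, rose (log2 0.96 ± 0.12, limma adjusted p = 0.0466). Dsp, which encodes the desmosomal protein desmoplakin, fell by 1.79 ± 0.24 on the log2 scale (limma adjusted p = 0.0495, 0.0501 with values floored at 100). Npnt, a matrix protein gene, was at log2 0.72 and did not pass. The summed intensity of the 11 was 14271 and 12183 in the controls, then 10698 and 11046 after fluoxetine, lower in both fluoxetine pools while C1ql2 was higher in both. Calb1 was the largest part, at 5157 and 4876 in the controls, then 3488 and 3843 after fluoxetine. It did not pass at that probeset (log2 -0.45), while 1 of its 3 tested probesets did. The part of granule cell content in the C1ql2 difference was not tested beyond these values.

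C1ql3, which encodes a secreted protein of many forebrain excitatory neurons, was measured by 3 probesets. The brightest, 1451620_at, read 9331 and 9607 in the controls, then 8895 and 10025 after fluoxetine. The highest and the lowest array were both fluoxetine pools, and the difference was -0.00 ± 0.09 on the log2 scale. The dimmer probesets 1425175_at (543 to 614 over the 4 arrays) and 1425176_at (399 to 489) gave 0.08 ± 0.09 and 0.06 ± 0.13. The groups overlapped at all 3, and with 1 array left out the differences spanned -0.09 to 0.20.

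Among the cerebellins, Cbln1 and Cbln4 differed more between the control pools than between the groups, and Cbln2 was level. Cbln1 encodes the founding cerebellin, best known from the cerebellum, where it ties granule cell axons to Purkinje cells. At 1423286_at it read 68.2 and 152 in the controls, then 123 and 87.6 after fluoxetine. The control pools thus held both the lowest and the highest value, and the group difference was 0.03 ± 0.41 on the log2 scale, -0.55 without control pool 1 and 0.61 without control pool 2. Probeset 1423287_at had the same order, at 36.2, 110, 69.6 and 62.0, with 1 array above 100, and was not tested. The third, 1423288_s_at, lay between 10.3 and 11.9 and was not tested, which leaves Cbln1 near the detection limit.

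Cbln2, whose protein also binds neurexins and delta-type receptors, lay on the detection limit at 1434779_at. It read 98.7 and 108 in the controls, then 101 and 99.2 after fluoxetine, a difference of -0.04 ± 0.08 on the log2 scale. The 4 arrays spanned a ratio of 1.09.

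Cbln4, whose protein binds neurexins and the netrin receptor DCC, was at 221 in control pool 1, 381 in control pool 2, 233 in fluoxetine pool 1 and 193 in fluoxetine pool 2. Control pool 2 stood apart from the other 3 arrays, and the groups overlapped. The difference was -0.45 ± 0.28 on the log2 scale, against a gap of 0.78 between the control pools. Without control pool 2 it was -0.06, and without control pool 1 it was -0.84, so its size rested on which control pool was kept.

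Control pool 2 was the highest of the 4 arrays at all 5 cerebellin probesets, 3 of them tested, whereas it was the highest at 25.5% of the 16938 tested probesets. The 3 Cbln1 probesets share a target and are not separate evidence. Other lists varied in how many tested genes were highest there. It was 6 of 11 on the AMPA receptor side, 7 of 15 other secreted organisers and 2 of 5 other C1q family genes. It was 4 of 13 interneuron markers, 3 of 11 receptors of cerebellins and C1q-like proteins, and 2 of 11 CA pyramidal markers. Astrocyte and oligodendrocyte markers had 2 of 10 and 2 of 9. Activity-regulated genes had 0 of 18, granule cell markers 0 of 11, microglia markers 0 of 5 and choroid plexus markers 0 of 2. Markers of regions next to the hippocampus were uneven too. Of 8 retrosplenial cortex and subiculum markers 7 were tested, 5 of them highest in control pool 2, and their summed intensity was 3134 and 3872 in the controls, then 3207 and 3170 after fluoxetine. Their largest group differences were those of Tshz2 (log2 -0.57), Cux2 (-0.40) and Fn1 (0.31). Of 13 thalamus and habenula markers 4 were tested, Prkcd (log2 0.56), Slc17a6 (-0.48), Nwd2 (-0.39) and Plekhg1 (0.10), and 2 were highest in control pool 2. Their sum was 1587 and 1808 in the controls, then 1432 and 1324 after fluoxetine. The defining thalamic and habenular genes Tcf7l2 and Gpr151 stayed under 100, with highest values of 95.2 and 46.3. In neither list did a gene pass limma (1 and 3 at an unadjusted p under 0.05, beside 22.05% of all genes). Their part in the cerebellin values was not tested.

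**Figure D2:**
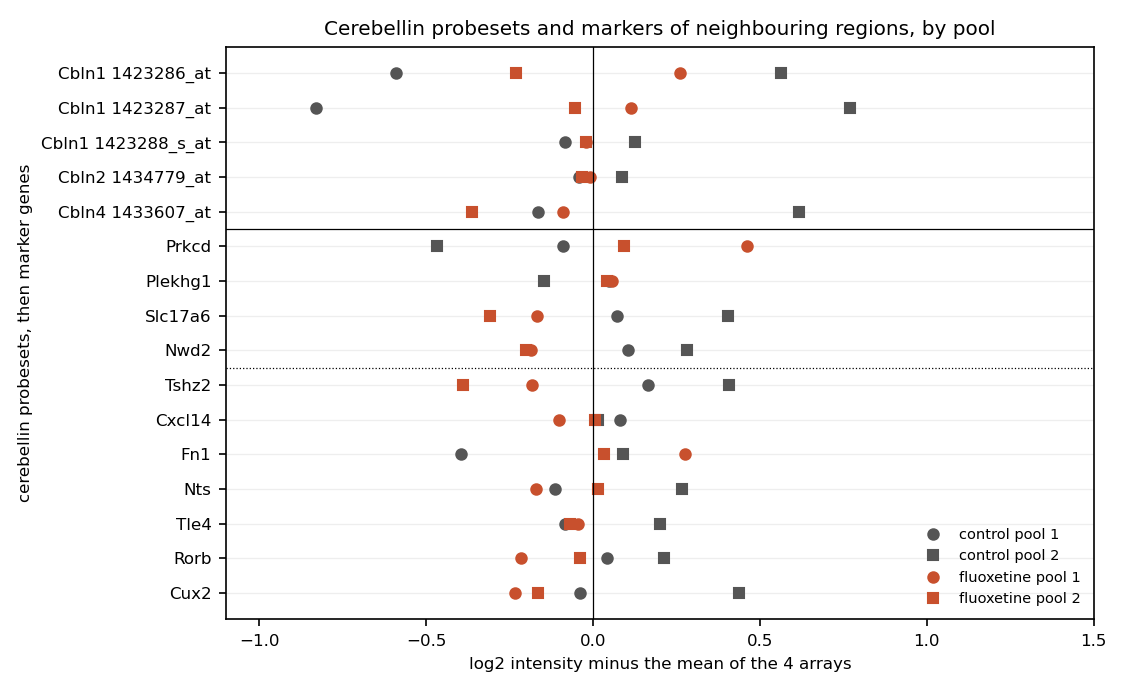
Log2 intensity minus the mean of the 4 arrays, 1 row per probeset or gene and 1 point per array, with grey for control and orange for fluoxetine pools and circles and squares for pools 1 and 2. The rows are the 5 cerebellin probesets, then 4 thalamus and habenula markers, then 7 retrosplenial cortex and subiculum markers. Control pool 2 is the rightmost point in all 5 cerebellin rows and in 7 of the 11 marker rows.

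Across the set, 10 of the 13 probesets, covering 7 genes, reached the filter. At their brightest tested probesets limma called 1 of the 7 genes, Nptx2, itself chosen on this comparison and past the filter only through its fluoxetine arrays, beside 1.86% of the 9030 genes with a tested probeset (1.31% higher and 0.554% lower). By the submitters' rule of at least 2-fold, 2 of the 10 probesets qualified, those of Nptx2 and C1ql2, beside 0.791% of tested probesets. The groups did not overlap at those 2 of the 10, beside 56.0% of tested probesets. Because the genes were chosen on this comparison, no weight is placed on these shares. The other 8 tested probesets lay between -0.45 and 0.11, and each had overlapping groups.

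**Figure D3:**
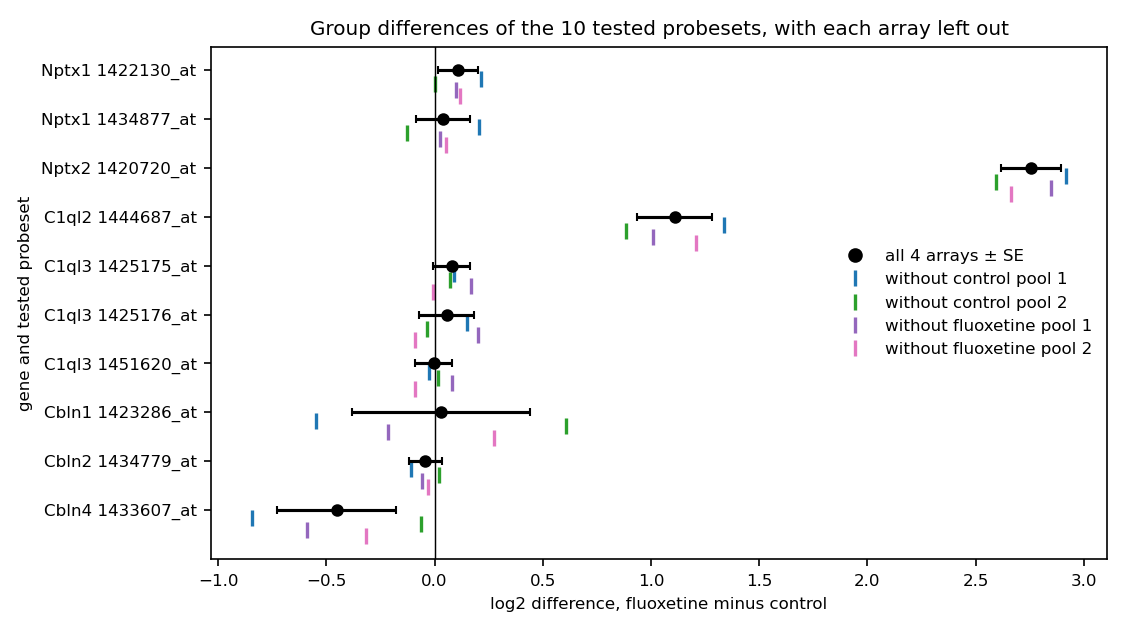
Log2 difference, fluoxetine minus control, at the 10 tested member probesets. Black points are the values over all 4 arrays with limma standard errors, and coloured ticks are the values with 1 array left out. Nptx2 (2.59 to 2.92) and C1ql2 (0.88 to 1.33) stay above 0 whichever array is left out with the Nptx2 size resting on control values under 100, and Cbln1 spans -0.55 to 0.61.

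The AMPA receptor genes, whose products the pentraxins gather, were not called. The list held 15 genes, for AMPA receptor subunits, their auxiliary proteins and ADAM17, a protease that cuts NPTXR from the membrane. Of these 11 were tested and 0 passed limma (4 at an unadjusted p under 0.05, beside 22.05% of all genes). Their median log2 difference was -0.18, beside -0.03 over 9030 genes, and 8 of 11 were below 0, beside 56.5% of genes. The lowest were Shisa9 (583 and 681 in the controls, then 418 and 477 after fluoxetine, log2 -0.50 ± 0.11, limma adjusted p = 0.108), Cacng3 (log2 -0.43 ± 0.13) and Gria1 (log2 -0.28 ± 0.10), the last encoding the GluA1 subunit. The pentraxins outside the nervous system family, Crp, Apcs, Ptx3 and Ptx4, had 0 tested members, with a highest intensity of 10.6 at Ptx3.

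Among other genes of the C1q family, the complement genes C1qa and C1qb rose. Of 24 such genes 5 were tested, 2 rose and 0 fell, with a median log2 of 0.13. C1qb went from 522 and 560 to 1197 and 1128 (log2 1.10 ± 0.08, limma adjusted p = 0.0252), and C1qa from 485 and 497 to 905 and 797 (log2 0.79 ± 0.09, limma adjusted p = 0.0400). Both encode chains of complement C1q, which microglia make in brain, and not synapse organisers of the C1q-like kind. C1qc, the gene of the remaining chain, did not pass the filter, with a highest intensity of 111.7. C1qtnf4 was lower without passing (log2 -0.40 ± 0.07, limma adjusted p = 0.0788). All 5 tested microglia markers of 10 were above 0, with a median of 0.38 and summed intensities of 3073 and 3011 in the controls, then 4213 and 4379 after fluoxetine. Of these Tyrobp rose (log2 0.81 ± 0.07), while Csf1r (0.55) and Cx3cr1 (0.38) did not pass. The part of microglia in the C1q values was not tested. The nearest relatives of the members, C1ql1 and Cbln3, were not above 12.6 and 5.40 on any array.

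No receptor gene for cerebellins and C1q-like proteins was called. Of 14 such genes 11 were tested, and 0 passed limma (5 at an unadjusted p under 0.05, beside 22.05% of all genes). Their log2 difference was below 0 at 10 of 11, beside 56.5% of all genes, with a median of -0.20 that was -0.11 without control pool 1 and -0.13 without fluoxetine pool 1. Grid1, which encodes the delta-type receptor GluD1, read 384 and 339 in the controls, then 246 and 248 after fluoxetine (log2 -0.54 ± 0.09, limma adjusted p = 0.0641). Dcc, the receptor of Cbln4 and of netrin, read 713 and 670 in the controls, then 481 and 517 after fluoxetine (log2 -0.47 ± 0.08, limma adjusted p = 0.0683). Both passed with a variance trend and robust settings (limma adjusted p = 0.0492 and 0.0449), the setting with the most calls. Neither passed with quantile normalization (limma adjusted p = 0.0530 and 0.0615) or median centring (limma adjusted p = 0.0505 and 0.0637). Grik4, the kainate receptor subunit of CA3 mossy fibre synapses, lay on the other side of 0 (log2 0.39 ± 0.14, limma adjusted p = 0.210).

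Other secreted synapse organisers and activity-regulated genes gave a contrast in counts. Of 24 other secreted organisers 15 were tested, and only Sparc, a matrix glycoprotein gene, rose, from 2368 and 2319 to 3988 and 3859 (log2 0.74 ± 0.07, limma adjusted p = 0.0341). The list median was -0.09 (0.02 without control pool 2), with Lgi2 at -0.38 and Olfm2 at 0.34. Of 22 activity-regulated genes 18 were tested, 7 rose and 0 fell, beside 1.31% higher and 0.554% lower over 9030 genes. The median was 0.83, beside -0.03 over those genes, with 17 of the 18 above 0. Those not called included Egr1 (log2 0.10), Junb (0.19), Nr4a1 (0.20), Arc (0.85), Fos (1.51) and Npas4 (-0.42 ± 0.94). Each of these was highest in fluoxetine pool 2, and the fluoxetine pools lay far apart. They read 36.7 and 270 for Npas4, 524 and 1202 for Nr4a1, and 483 and 1039 for Fos. The groups overlapped for Egr1, Junb, Nr4a1 and Npas4, so the direction there is not settled. Inhba, Plat and Gadd45b were instead highest in fluoxetine pool 1. Bdnf, a neurotrophin, rose by log2 2.15 ± 0.07 (limma adjusted p = 0.00613), Gadd45b by 1.28 and Rgs2, a regulator of G protein signalling, by 1.17. Inhba, the activin beta A subunit, rose at least 3.02-fold against 100 and passed the filter only through its fluoxetine arrays. No set test was made, and the difference between the lists was not tested.

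**Figure D4:**
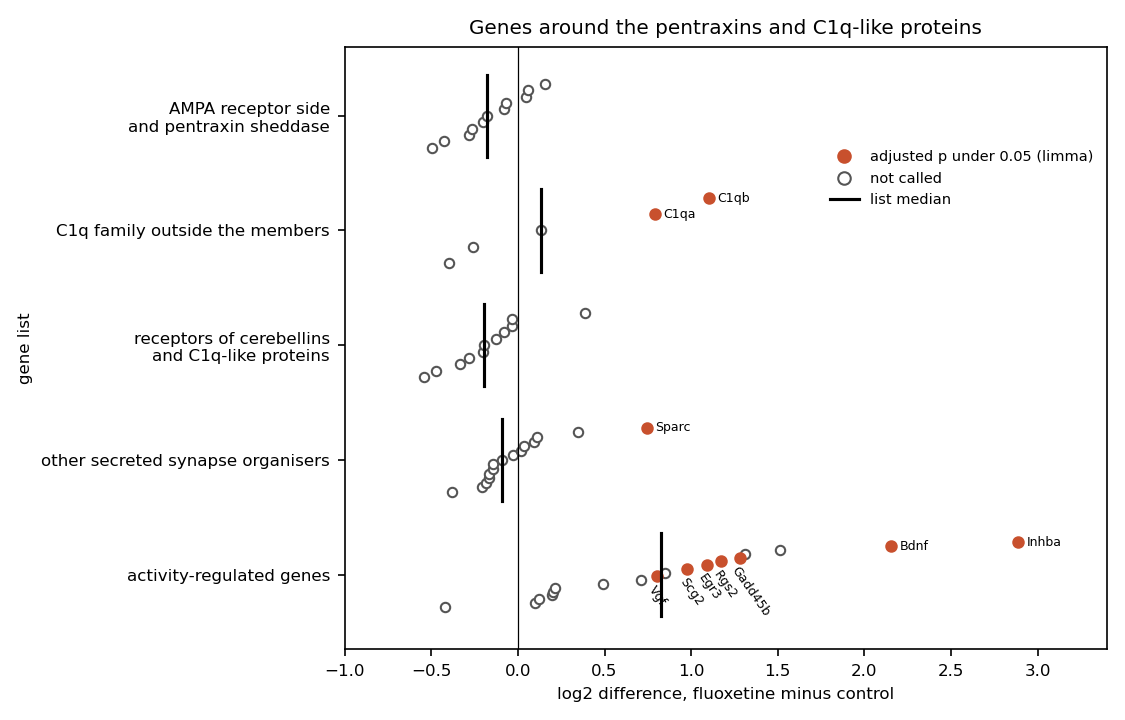
Log2 difference, fluoxetine minus control, of each tested gene of 5 lists at its brightest tested probeset. Filled orange points passed limma at an adjusted p under 0.05 and carry names, open points did not, and the black bar is the list median. Medians run from -0.20 for the receptors to 0.83 for the activity-regulated genes.

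Genes with the most similar pattern were sought among 8807 named genes outside the set. Likeness was the root mean square difference over the 4 arrays of log2 values centred on each gene's own mean, and with 4 arrays it mostly reflects the group difference. For Nptx2 the nearest were Gfap, the astrocyte filament (0.18), Inhba (0.21) and the calcium-binding protein gene S100a6 (0.28). For C1ql2 they were Ly86 (0.04), the urea transporter gene Slc14a1 (0.06) and Palld (0.07), and none of the 3 passed limma. Ly86 and Slc14a1 were at log2 1.13 and 1.02. Palld had both controls under 100, so only a bound can be given, at least 1.26-fold higher. For Cbln4, added after its values were seen, they were Fmod (0.06), Fxyd6 (0.13) and Bmper (0.14). Each of these 3 had its highest value in control pool 2, at 436, 1467 and 155. That follows from choosing them for nearness to Cbln4.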

How the data were processed

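The sample titles gave each array's group and pool. The deposited table has a linear intensity for each probeset, which the authors made by GCRMA in the ArrayAssist software, per the labels, with no version stated. GCRMA corrects background by probe sequence and draws dim probesets to a floor. Of 45101 probesets, 34958 had 1 platform symbol, 932 several and 9211 none. Values were taken to log2 with no pseudocount. The two-sided moderated test of limma 3.58.1 (R 4.3.3, eBayes defaults, no covariate) was fitted to all 16938 tested probesets, and its test stands in for an exact permutation test, which 2 against 2 arrays cannot take under 0.333. A gene is represented by the brightest of its tested probesets, by mean log2 value. Errors are limma standard errors with n = 2 pools per group, and group means are geometric. The procedure was tested on simulated data. The number of arrays limits the precision.

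The members, lists, tests and alternatives were chosen with earlier results of these data known. Lists cover pentraxins, the AMPA receptor side, the C1q family, receptors, other secreted organisers, activity-regulated genes, and granule, pyramidal, interneuron, thalamic, choroid plexus, retrosplenial, microglial, astrocyte and oligodendrocyte markers. From each list the text names up to 4 called genes, filled to 3 with the largest absolute differences. Other genes named were chosen after their values were seen. 8 list genes without a probeset of 1 symbol were not analysed here. Sequences are from the RefSeq promoter table of GRCm38.p6.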

Additional observations from a re-analysis of the deposited data

How the results depend on the processing

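The count of calls depended on the settings more than the values did. Against 291 probesets, 1 member gene and 17 of the listed genes called, limma gave 0, 0 and 0 with no intensity filter (5396 probesets at an unadjusted p under 0.05), and 0 for each count with any 1 array left out. The replicate block, with the pool number as a covariate, gave 9, 0 and 4. The deviations of same-numbered pools correlated at 0.139, and with 2 pairs the number is not taken as a pairing. A variance trend with robust settings gave 532 probesets, 2 members and 25 listed genes. Quantile normalization and median centring also gave 2 members, and the submitters' 2-fold rule gave 134 probesets and 2 members. Requiring 100 in all 4 arrays removed Nptx2 and gave 0 members. Nptx2 was at log2 1.90 with values floored at 100 and 2.21 with a pseudocount of 32. Of 158 recomputed values of member and joint probesets, 156 moved by less than the spread between pools. With 1 array left out, or with only the filter, covariate or variance estimate changed, that outcome was fixed by the arithmetic and carries no weight. Among the genes named by the list rule or as nearest patterns, Ttr reversed direction without control pool 2 (-1.33) or fluoxetine pool 1 (-0.97). Kl did so without control pool 1 (0.33) or fluoxetine pool 2 (0.64), and Fxyd6 without control pool 2 (0.048). With 1 array left out these log2 differences ran from -1.33 to 2.91 for Ttr, -1.28 to 0.64 for Kl and -0.57 to 0.048 for Fxyd6. Tested member probesets whose sign changed with 1 array left out were Nptx1 1434877_at, all those of C1ql3, Cbln1 1423286_at and that of Cbln2. The granule cell marker and other organiser medians also changed sign with 1 control pool left out (0.11 and 0.02). The cause of these changes was not tested, except that fewer arrays leave less to estimate the spread. Intensities under 100 limit Nptx2 in controls, Cbln1 and Cbln2.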
